A study of Mus musculus with 6 samples.

Results

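The genes described here encode 8 proteins of the myelin sheath: Mbp, Mag, Mog, Mobp, Cnp, Mal, Prx and Pmp22. They were taken by gene symbol from the 32285 genes of each count table, and each symbol had 1 row. The RNA came from nuclei of frozen lumbar spinal cord, counted with a droplet method that reads the 3' ends of transcripts and marks each captured molecule with a unique molecular identifier (UMI). All mice were C57BL/6, 110 days old and SOD1G93A, a line that carries a mutant human SOD1 transgene and models amyotrophic lateral sclerosis. There were 3 SOD1G93A/PHD1-/- libraries, from mice without the oxygen-sensing prolyl hydroxylase PHD1, the product of Egln2, and 3 SOD1G93A/PHD1+/+ libraries. The labels speak of littermate pairs, and no mouse without the SOD1 transgene was analysed here. The sources used here do not give which part of Egln2 is deleted, in which cells, or whether each library is 1 mouse.

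Myelin is a membrane wrapped around an axon in many layers that lets impulses jump between nodes. Oligodendrocytes make it in the brain and spinal cord, and each of them serves several axons. Schwann cells make it in nerves and nerve roots, and each wraps a single stretch of axon inside a basal lamina. The sheaths share some proteins and differ in others: Mog and Mobp belong to central myelin, periaxin and abundant Pmp22 to peripheral myelin, while Mbp, Cnp, Mag and Mal are known from both. Lumbar cord tissue can keep pieces of nerve root, so nuclei of both glial types can enter the same library.

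Kept nuclei numbered 41906. Among them 13433 formed oligodendrocyte-like clusters and 960 a Schwann-like cluster, both named from markers that hold none of the 8 genes, which were also left out of the genes used for clustering. The PHD1-/- libraries gave 1863, 2998 and 1715 oligodendrocyte-like nuclei (replicates 1, 2 and 3, an order kept for every value below), and the PHD1+/+ libraries 2513, 2794 and 1550. The Schwann-like nuclei numbered 193, 65 and 227 in the PHD1-/- libraries and 285, 155 and 35 in the PHD1+/+ libraries. Levels are in CPM, the UMIs of a gene in every 1000000 UMIs of the same class and library. The summed level of the 13 Schwann markers was 437 to 678 CPM in oligodendrocyte-like nuclei and 5942 to 25423 CPM in Schwann-like nuclei. The 13 oligodendrocyte markers summed to 16813 to 31669 CPM in oligodendrocyte-like nuclei and to 4128 to 5434 CPM in Schwann-like nuclei, so central transcripts were present in the Schwann-like sums.

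The libraries held 5387 to 9174 barcodes. Replicate 1 of both genotypes stood apart: median depth per kept nucleus was 1365 UMIs (PHD1-/-) and 1363 UMIs (PHD1+/+) there, while the remaining 4 libraries had medians of 2364 to 2974 UMIs, and its barcodes came from another list. At most 86 barcodes were shared by any 2 libraries. Replicate 1 also had more myelin RNA in nuclei that should lack it: Mbp, Mobp and Mog together came to 328, 81.0 and 64.1 CPM in neuron-like nuclei of PHD1-/- and to 480, 90.8 and 72.2 CPM in those of PHD1+/+. Egln2 itself, over all nuclei, was at 9.66, 9.04 and 10.1 CPM in the PHD1-/- libraries and at 29.6, 18.8 and 16.4 CPM in the PHD1+/+ libraries, so the groups did not overlap, although the adjusted p over all genes was 1 (edgeR's quasi-likelihood test, Benjamini-Hochberg adjustment, unadjusted p = 0.0029).

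Promoters of the genes that differed most between the glial types are shown because SOX10 is known as a regulator of both glia and EGR2 of Schwann cells. The sequences are RefSeq's for GRCm38.p6, from 250 bases before to 50 after an annotated start, given 5' to 3' on the gene's strand. Capitals mark the SOX-family letters ACAAAG or, on the other strand, CTTTGT.

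Mobp, chr9:120149492-120149791, plus strand: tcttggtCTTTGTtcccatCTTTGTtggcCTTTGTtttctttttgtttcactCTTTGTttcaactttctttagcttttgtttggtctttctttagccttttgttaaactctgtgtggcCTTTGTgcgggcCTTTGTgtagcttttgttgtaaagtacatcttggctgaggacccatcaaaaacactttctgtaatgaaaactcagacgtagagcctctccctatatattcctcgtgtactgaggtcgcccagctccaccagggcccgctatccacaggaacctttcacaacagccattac
Mag, chr7:30914814-30915113, minus strand: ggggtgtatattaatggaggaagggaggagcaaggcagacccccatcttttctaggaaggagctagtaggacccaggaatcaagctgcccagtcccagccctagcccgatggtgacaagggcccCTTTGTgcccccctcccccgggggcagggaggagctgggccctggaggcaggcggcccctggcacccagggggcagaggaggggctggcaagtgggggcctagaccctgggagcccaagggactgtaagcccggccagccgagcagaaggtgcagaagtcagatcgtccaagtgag
Mog, chr17:37023349-37023648, minus strand: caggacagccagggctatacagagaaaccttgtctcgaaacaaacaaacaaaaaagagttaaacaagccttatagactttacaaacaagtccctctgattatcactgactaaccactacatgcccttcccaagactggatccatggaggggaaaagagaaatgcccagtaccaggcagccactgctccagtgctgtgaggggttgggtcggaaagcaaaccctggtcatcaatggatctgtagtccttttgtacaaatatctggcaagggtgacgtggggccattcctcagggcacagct
Prx, chr7:27499074-27499373, plus strand: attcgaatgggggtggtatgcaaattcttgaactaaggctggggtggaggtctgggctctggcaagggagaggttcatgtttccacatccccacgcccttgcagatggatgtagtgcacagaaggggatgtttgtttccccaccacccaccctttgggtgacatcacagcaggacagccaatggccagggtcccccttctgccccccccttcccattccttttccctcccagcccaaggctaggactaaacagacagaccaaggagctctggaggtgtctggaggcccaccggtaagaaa
Pmp22, chr11:63128732-63129031, plus strand: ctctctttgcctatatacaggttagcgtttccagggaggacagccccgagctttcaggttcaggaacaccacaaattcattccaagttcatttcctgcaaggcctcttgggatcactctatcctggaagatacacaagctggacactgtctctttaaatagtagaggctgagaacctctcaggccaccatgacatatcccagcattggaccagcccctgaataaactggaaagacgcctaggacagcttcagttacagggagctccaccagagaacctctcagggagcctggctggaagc

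RefSeq's table held 12 starts for 7 of the 8 genes. The letters ACAAAG or ACAATG, searched on both strands, occurred in 4 of those 12 promoters, belonging to 3 genes (Mag, Mobp and Cnp), and in 28.6% of 32851 promoters of the same length. Mag has 3 starts in the table: the windows of 2 of them overlap and hold the same match, and the other holds none. The Mobp promoter held 6 copies of ACAAAG, and it was the only 1 of the 32851 with so many, while the median promoter holding the letters had 1. The EGR-family letters GCGTGGGCG were in 0 of the 12 promoters and in 0.612% of all. A match of letters is a description of the sequence and not evidence of binding, and the lack of a match covers these windows only.

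Oligodendrocyte-like nuclei differed from Schwann-like nuclei in 3 ways across the 8 genes. Mog, Mobp and Mag, all called higher in oligodendrocyte-like nuclei, had fitted log2 fold changes of 2.69 to 3.69. Prx and Pmp22 were far lower there. Mbp, Cnp and Mal had similar levels in both glia, and whether they differed depended on how the libraries were scaled. Of 12617 genes tested, 34.8% were called at an adjusted p under 0.05, with 20.9% higher and 13.9% lower in oligodendrocyte-like nuclei, and DESeq2 called 28.9%. Of the 8 myelin genes 5 were called higher and 2 lower, and their median log2 fold change was 0.68 beside 0.12 for all genes tested. Scaled by library totals in place of TMM, a trimmed mean of ratios between libraries, 3 were called higher and 3 lower, with a median of 0.29 beside -0.22. The classes were drawn from other genes of the same nuclei, so these contrasts describe how the genes follow the classes.

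Mog, on chromosome 17 at 37010743 to 37023398 (mm10, minus strand), encodes a glycoprotein of the outermost myelin surface that is known as a target in autoimmune demyelination. Mog had 1818, 1219 and 1296 CPM in oligodendrocyte-like nuclei of PHD1-/- and 1366, 1317 and 1174 CPM in those of PHD1+/+. In Schwann-like nuclei it had 302, 59.1 and 86.7 CPM in PHD1-/- and 277, 72.7 and 61.3 CPM in PHD1+/+. Every oligodendrocyte-like value lay above every Schwann-like value, and the highest Schwann-like values were those of replicate 1 of both genotypes. The log2 fold change was 3.69 ± 0.28 (SE), with an adjusted p of 5.07e-12 by edgeR's quasi-likelihood test.

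Part of the Mog signal in the Schwann-like sums lay in nuclei with at least as many UMIs of oligodendrocyte markers as of Schwann markers. Such mixed nuclei numbered 81, 1 and 11 in the PHD1-/- libraries and 133, 8 and 1 in the PHD1+/+ libraries. Nuclei with fewer oligodendrocyte than Schwann marker UMIs were not counted as mixed, and can still hold oligodendrocyte markers. Without the mixed nuclei Mog had 112, 59.5 and 36.0 CPM in Schwann-like nuclei of PHD1-/- and 142, 22.1 and 61.9 CPM in those of PHD1+/+. Its log2 fold change was then 4.78. Leaving out nuclei for their oligodendrocyte markers on the Schwann side alone favours a wider contrast. The level rose slightly in PHD1-/- replicate 2 (from 59.1 CPM) and PHD1+/+ replicate 3 (from 61.3 CPM) only because the class total shrank. The Mog UMIs of these libraries stayed at 5 and 3, and the 22.1 CPM of PHD1+/+ replicate 2 rested on 4 UMIs. Over replicates 2 and 3 alone the log2 fold change of Mog was 4.48. How much of the remaining level is RNA from other cells was not tested.

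Mobp, on chromosome 9 at 120149707 to 120181484 (plus strand), encodes a small basic protein of compact central myelin. It had 816, 1084 and 1476 CPM in oligodendrocyte-like nuclei of PHD1-/- and 833, 1192 and 1692 CPM in those of PHD1+/+. In Schwann-like nuclei it had 259, 94.5 and 120 CPM in PHD1-/- and 237, 125 and 102 CPM in PHD1+/+. The classes did not overlap; within oligodendrocyte-like nuclei replicate 3 was the highest and replicate 1 the lowest in both genotypes. The log2 fold change was 3.17 ± 0.28 (SE; adjusted p = 1.52e-10, edgeR's quasi-likelihood test), and it was 4.10 without the mixed nuclei and 3.96 over replicates 2 and 3 alone.

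Mag, on chromosome 7 at 30899176 to 30914873 (minus strand), encodes a sialic-acid-binding adhesion protein of the inner membrane that faces the axon. In oligodendrocyte-like nuclei it was at 1835, 1535 and 1410 CPM in PHD1-/- and at 1721, 1825 and 1466 CPM in PHD1+/+. In Schwann-like nuclei it was at 361, 272 and 332 CPM in PHD1-/- and at 528, 254 and 225 CPM in PHD1+/+. Again no value of either class reached the range of the other. The log2 fold change was 2.69 ± 0.22 (SE; adjusted p = 3.1e-11, edgeR's quasi-likelihood test), and 3.02 without the mixed nuclei.

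Mbp, on chromosome 18 at 82475146 to 82585637 (plus strand), encodes the basic protein that holds the cytoplasmic faces of the myelin membrane together. Mbp had 4245, 3367 and 3649 CPM in oligodendrocyte-like nuclei of PHD1-/- and 4325, 3460 and 3711 CPM in those of PHD1+/+. In Schwann-like nuclei it had 3704, 2965 and 3064 CPM in PHD1-/- and 3597, 2809 and 2554 CPM in PHD1+/+. Within each of the 6 libraries the oligodendrocyte-like value was the higher, by a log2 ratio of 0.18 to 0.54, but the ranges of the classes overlapped. The fitted log2 fold change was 0.68 ± 0.22 (SE; adjusted p = 0.0134, edgeR's quasi-likelihood test with TMM). Scaled by library totals it was 0.29 (adjusted p = 0.185), and the call was also lost without PHD1+/+ replicate 2 (0.66, adjusted p = 0.0606) and without PHD1-/- replicate 3 (0.69, adjusted p = 0.0572).

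Mal, on chromosome 2 at 127633226 to 127656695 (minus strand), encodes a proteolipid of membrane rafts and apical transport that is also known from epithelia. It had 472, 837 and 691 CPM in oligodendrocyte-like nuclei of PHD1-/- and 425, 1360 and 850 CPM in those of PHD1+/+. In Schwann-like nuclei it had 356, 922 and 765 CPM in PHD1-/- and 361, 779 and 552 CPM in PHD1+/+. Both classes were lowest in replicate 1, and their ranges overlapped; the log2 ratio was above 0 in 4 libraries and below 0 in PHD1-/- replicates 2 and 3. The fit gave 0.67 ± 0.19 (SE; adjusted p = 0.00494, edgeR's quasi-likelihood test), against 0.28 (adjusted p = 0.182) with library totals.

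Cnp, on chromosome 11 at 100574904 to 100591729 (plus strand), encodes the cyclic nucleotide phosphodiesterase of cytoplasm-filled myelin channels. It was at 323, 312 and 258 CPM in oligodendrocyte-like nuclei of PHD1-/- and at 375, 389 and 276 CPM in those of PHD1+/+. Schwann-like nuclei had 345, 449 and 457 CPM in PHD1-/- and 437, 462 and 347 CPM in PHD1+/+. The ratio within a library was below 0 on the log2 scale in all 6, from -0.82 to -0.09, and the ranges overlapped. With TMM the log2 fold change was -0.01 (95% interval -0.33 to 0.31, adjusted p = 0.984); with library totals it was -0.38 (adjusted p = 0.0388), both by edgeR's quasi-likelihood test. The scalings differ by 0.34 in the median log2 fold change of all genes, which was 0.12 with TMM and -0.22 with library totals.

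Periaxin, the product of Prx, is a scaffold that ties the Schwann cell membrane to its basal lamina through the dystroglycan complex. Prx lies on chromosome 7 at 27499324 to 27520214 (plus strand), inside which Gm15541 lies on the other strand. In oligodendrocyte-like nuclei it was at 10.7, 0.828 and 1.35 CPM in PHD1-/- and at 24.3, 2.96 and 0.330 CPM in PHD1+/+, from 1 to 62 UMIs in a library. In Schwann-like nuclei it was at 1289, 1725 and 1707 CPM in PHD1-/- and at 1141, 1527 and 1083 CPM in PHD1+/+. The classes were separated in all 6 libraries, and the highest oligodendrocyte-like values were those of replicate 1. The log2 fold change was -7.95 ± 0.44 (SE; adjusted p = 4.81e-15, edgeR's quasi-likelihood test), -8.81 by DESeq2, -8.82 without PHD1+/+ replicate 1 and -9.58 over replicates 2 and 3 alone.

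Pmp22 encodes a membrane-spanning protein of compact peripheral myelin, whose gene dosage is known to cause inherited neuropathy, and lies on chromosome 11 at 63128982 to 63159547 (plus strand). Pmp22 had 160, 121 and 132 CPM in oligodendrocyte-like nuclei of PHD1-/- and 207, 181 and 134 CPM in those of PHD1+/+. In Schwann-like nuclei Pmp22 had 2550, 4950 and 4855 CPM in PHD1-/- and 2635, 5234 and 3699 CPM in PHD1+/+. The lowest Schwann-like values, both in replicate 1, were still above every oligodendrocyte-like value. The log2 fold change was -4.25 ± 0.24 (SE; adjusted p = 1.01e-14, edgeR's quasi-likelihood test).

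**Figure D1:**
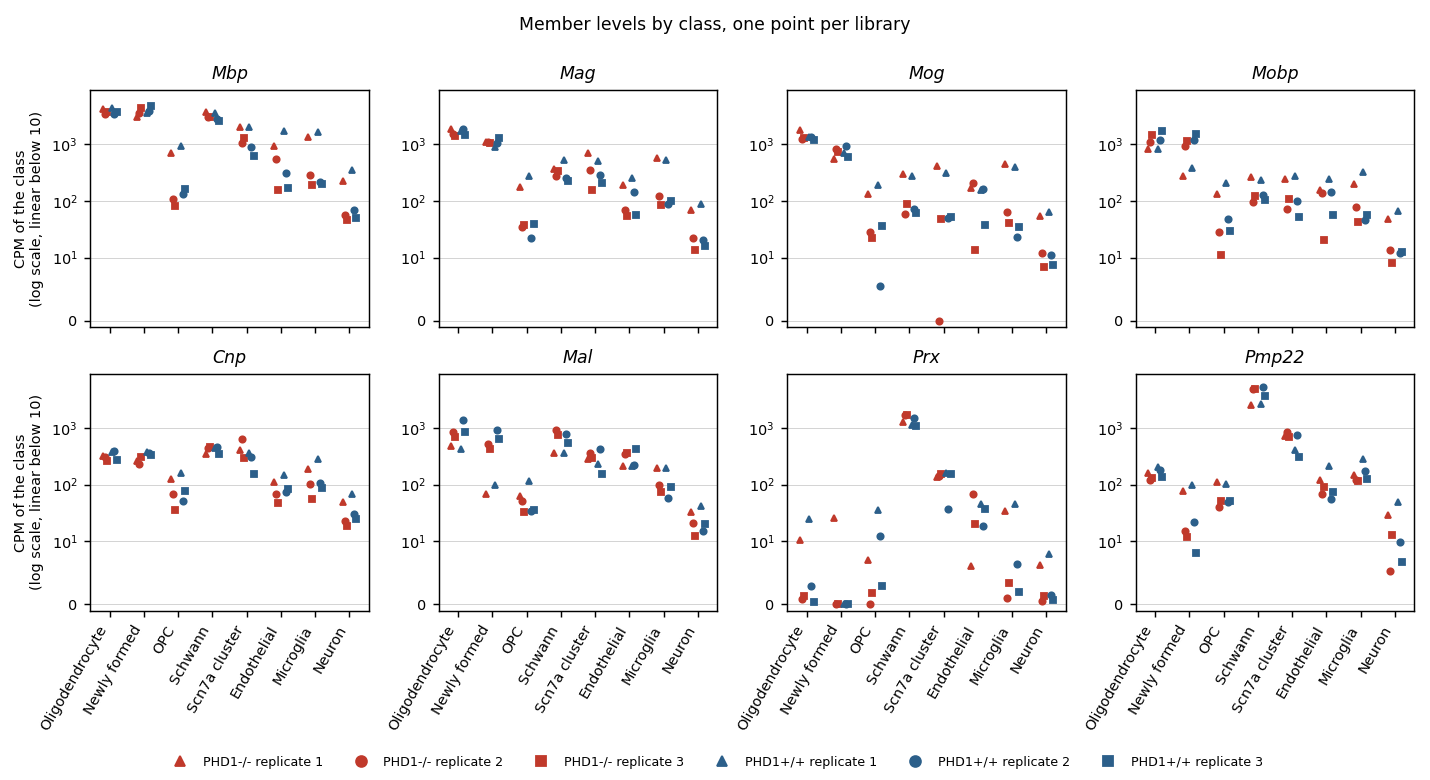
CPM of each of the 8 genes (vertical axis, logarithmic above 10 and linear below) in 8 classes of nuclei, 1 point per library, with PHD1-/- in red and PHD1+/+ in blue. Mbp stays within 2554 to 4722 CPM in the oligodendrocyte-like, newly formed and Schwann-like classes, while Prx and Pmp22 peak in Schwann-like nuclei and the replicate 1 triangles stand highest in most other classes for the central genes.

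Single nuclei showed the same division after each was thinned to 500 UMIs. A Prx UMI was found in 0.376%, 0.100% and 0.0583% of oligodendrocyte-like nuclei of PHD1-/- and in 0.995%, 0.179% and 0.000% of those of PHD1+/+. The share among Schwann-like nuclei was 50.8%, 53.8% and 57.7% in PHD1-/- and 45.6%, 46.5% and 37.1% in PHD1+/+. Mog was found in 44.3% to 58.4% of oligodendrocyte-like nuclei over the 6 libraries and in 3.1% to 9.3% of Schwann-like nuclei. Mbp did not divide them in this way: its share averaged 81.8% in oligodendrocyte-like and 72.5% in Schwann-like nuclei, beside 4.6% to 11.2% in microglia-like nuclei of replicates 2 and 3 and 36.6% and 41.3% in those of PHD1-/- and PHD1+/+ replicate 1. Unthinned, the Mbp share averaged 96.9% and 88.6%, with median depths of 877 to 1934 UMIs in oligodendrocyte-like and 753 to 1255 UMIs in Schwann-like nuclei.

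The ratio of central to shared transcripts was lower in Schwann-like nuclei than in oligodendrocyte-like nuclei and in classes not known to make myelin. Per 100 Mbp UMIs, oligodendrocyte-like nuclei had 31.6 to 42.8 Mog UMIs over the 6 libraries, Schwann-like nuclei 2.0 to 8.2, neuron-like nuclei 16.0 to 24.0 and microglia-like nuclei 10.9 to 33.8. For Mobp the numbers were 19.2 to 45.6 in oligodendrocyte-like, 3.2 to 7.0 in Schwann-like, 17.8 to 25.2 in neuron-like and 14.7 to 27.6 in microglia-like nuclei. The Schwann-like ratios lay below those of all 3 other classes in every library, while Mbp itself was near its oligodendrocyte-like level. An unnamed cluster led by Scn7a, with both Schwann and oligodendrocyte markers, had 3.8 to 20.9 Mog UMIs over 4 libraries, a range that overlapped the Schwann-like one. Its Mobp range was 8.3 to 13.2, below the neuron-like and microglia-like ranges. For Mal per 100 Mbp UMIs the ranges overlapped, at 9.8 to 39.3 in oligodendrocyte-like and 9.6 to 31.1 in Schwann-like nuclei.

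**Figure D2:**
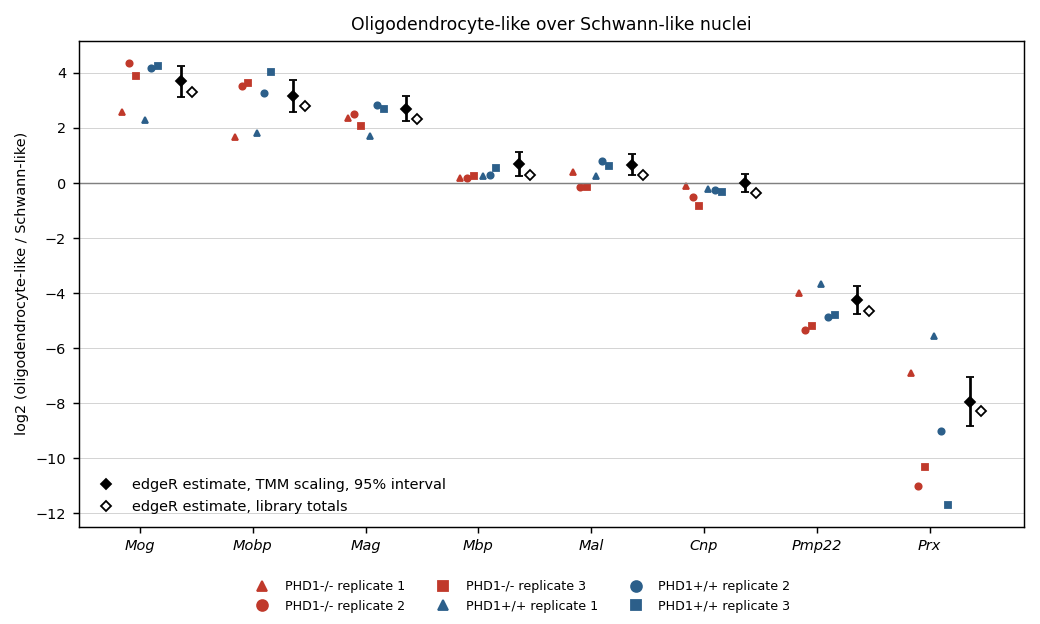
Log2 of the CPM in oligodendrocyte-like over that in Schwann-like nuclei for each gene, 1 coloured point per library, beside edgeR's estimate with TMM scaling and its 95% interval (filled diamond) and the estimate with library totals (open diamond). Mog, Mobp and Mag lie between 1.66 and 4.37, Mbp, Mal and Cnp between -0.82 and 0.80, and Pmp22 and Prx between -11.68 and -3.67, where the lowest Prx point rests on 1 UMI in the oligodendrocyte-like sum.

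Other genes of each sheath, listed for their known roles, divided in the same way; 10 of the 20 central and 10 of the 16 peripheral genes were themselves naming markers, and all could shape the clusters. Of all genes tested 20.9% were called higher and 13.9% lower. Of the 20 central myelin and oligodendrocyte genes, 19 were called higher and 0 lower, with a median log2 fold change of 2.77. The iron carrier gene Trf was higher by 3.48 and Enpp2, a naming marker whose product makes lysophosphatidic acid, by 3.31. Sirt2 was at 0.14 and not called. Of the 16 peripheral genes 14 were called lower and 1 higher, with a median of -4.76. Dag1, the dystroglycan gene, was at -4.47; the connexin gene Gjb1 was the higher one, at 1.08.

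Of 15 transcription factor genes of myelination, 2 of them naming markers, 9 were called higher in oligodendrocyte-like nuclei and 4 lower, with a median log2 fold change of 1.61; of all genes tested 20.9% were higher and 13.9% lower. Myrf, needed for central myelin gene expression, was at 3.80 and St18, a naming marker of oligodendrocytes, at 4.41. Egr2, the Schwann cell myelination factor and a naming marker of Schwann cells, was at -7.61. The POU factor gene Pou3f1, also known as Oct6, was at -1.66 and its relative Pou3f2 at -3.66. Sox10, used by both glia, was at 0.13 and not called.

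Lipid and node genes were called about as often as all genes tested (20.9% higher, 13.9% lower), so their counts say nothing particular about them. The scaling also mattered: with library totals the medians of the lipid and node lists were -0.06 and -0.06, against 0.30 and 0.27 with TMM. Of 10 tested myelin lipid genes 3 were higher and 2 lower with TMM, and 1 and 2 with library totals, while the galactolipid enzyme genes Ugt8a and Fa2h were at 0.24 and 0.42 and not called with TMM. Of 11 node and paranode genes 3 were higher, among them Cntn2 at 3.65, which encodes a juxtaparanodal adhesion protein, and 2 lower, among them Nrcam at -3.80. Of 10 precursor genes, 9 of them naming markers, 3 were higher, with Enpp6 at 3.88, and 4 lower, with Fyn at -1.28. Among 4 tested relatives of Pmp22 and Mal, Cmtm5 was higher by 1.18 and Emp2, of the Pmp22 family, was at -5.59.

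Across all classes of nuclei the 8 genes had 3 kinds of order. Mog averaged 1365 ± 233 CPM in oligodendrocyte-like nuclei and 724 ± 138 CPM in newly formed oligodendrocyte-like nuclei (SD, n = 6 libraries), ranges that did not overlap, and Mag averaged 1632 ± 186 and 1077 ± 121 CPM, again without overlap. Mobp averaged 1182 ± 350 and 903 ± 490 CPM, which overlapped. Mbp was at 3793 ± 402 CPM in oligodendrocyte-like, 3843 ± 594 CPM in newly formed and 3116 ± 450 CPM in Schwann-like nuclei, which overlapped with each other, ahead of 1311 ± 582 CPM in a cluster led by the sodium channel gene Scn7a. The newly formed class was small, with 318 nuclei in all and 26 to 88 in a library.

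Cnp had no clear leading class: oligodendrocyte-like nuclei averaged 322 ± 52.0 CPM, newly formed ones 312 ± 54.1, the Scn7a cluster 360 ± 162 and Schwann-like nuclei 416 ± 55.0 (SD, n = 6), and neighbours in the order of these means overlapped. Mal averaged 772 ± 338 CPM in oligodendrocyte-like, 622 ± 236 in Schwann-like, 441 ± 323 in newly formed and 298 ± 96.0 in endothelial-like nuclei, all overlapping with their neighbours. Prx averaged 6.75 ± 9.43 CPM in oligodendrocyte-like nuclei, 132 ± 47.2 in the Scn7a cluster and 1412 ± 281 in Schwann-like nuclei, and the last stood clear of the Scn7a cluster. Pmp22 averaged 156 ± 33.3 CPM in oligodendrocyte-like and 161 ± 61.0 in microglia-like nuclei, 627 ± 216 in the Scn7a cluster and 3987 ± 1201 in Schwann-like nuclei.

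In oligodendrocyte precursor-like (OPC-like) nuclei Mbp was at 700, 110 and 80.1 CPM in PHD1-/- and at 923, 130 and 160 CPM in PHD1+/+. Replicate 1 was far above the rest in both genotypes, as it was for Mbp in microglia-like nuclei, at 1334, 284 and 190 CPM in PHD1-/- and at 1653, 214 and 201 CPM in PHD1+/+. Precursor-like levels of Mbp in every library were below the microglia-like ones, so a level set by precursors themselves could not be told apart from stray RNA. In newly formed nuclei Mal also differed by library, at 68.8, 512 and 420 CPM in PHD1-/- and at 97.3, 910 and 639 CPM in PHD1+/+, with replicate 1 lowest in both genotypes.

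Genes among those whose levels followed the members most closely over the 13 classes were named by Pearson's r of log2 CPM, a description over classes that share libraries. For Mog they were Mobp (0.98), Opalin (0.97), Myrf (0.97) and Mag (0.96). Prx had Gm15541 (0.94), Pmp22 (0.94), Egr2 (0.93) and D430040D24Rik (0.93). Pmp22 had Cdkn1a (0.95), Prx (0.94), Fxyd3 (0.93) and Cryab (0.92). Opalin and Egr2 were themselves naming markers of the classes. The reads of Prx and Gm15541 overlap on the genome, and no source used here says whether counting used the strand. In the GENCODE annotation of mm10, Dnajc7 overlaps Cnp, Rpl21-ps8 overlaps Mbp and Gm22388 overlaps Mog on the other strand, and Gm38642 overlaps Mobp on the same strand, so reads shared there are uncertain.

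Within oligodendrocyte-like nuclei Mal, Cnp, Mag, Mog and Mobp differed between an Enpp6-rich and a Ptgds-led cluster in another direction than Mbp and Pmp22. The comparison used the 4 libraries of replicates 2 and 3 and 3 clusters, namely one rich in Enpp6 (1718 nuclei), one led by Anln (2122 nuclei) and one led by Ptgds (5049 nuclei), while the other clusters came mostly from replicate 1. Over these libraries Mal lay between 382 and 637 CPM in the Enpp6-rich cluster, between 651 and 1144 CPM in the Anln-led cluster and between 974 and 1905 CPM in the Ptgds-led cluster. In each of the 4 libraries it was lower in the Enpp6-rich than in the Ptgds-led cluster, with log2 differences of -1.63 and -1.35 in PHD1-/- and of -1.58 and -1.34 in PHD1+/+.

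Mbp and Pmp22 were higher in the Enpp6-rich than in the Ptgds-led cluster in all 4 libraries. Mbp had 3749 to 4030 CPM in the Enpp6-rich, 3379 to 3768 CPM in the Anln-led and 3126 to 3468 CPM in the Ptgds-led cluster. Its log2 difference between the Enpp6-rich and Ptgds-led clusters was 0.26 and 0.23 in PHD1-/- and 0.23 and 0.22 in PHD1+/+, and that of Pmp22 was 0.26 and 0.49 in PHD1-/- and 0.56 and 0.57 in PHD1+/+. Cnp was lower in the Enpp6-rich cluster in all 4 libraries, with log2 differences of -0.59 and -0.68 in PHD1-/- and of -0.21 and -0.66 in PHD1+/+. Mag differed by -0.35 and -0.39 in PHD1-/- and by -0.40 and -0.18 in PHD1+/+. The difference was -0.31 to -0.11 for Mog and -0.14 to -0.06 for Mobp, below 0 in all 4 libraries for both. Pmp22, Mog and Mobp had their highest values in the Anln-led cluster, so they did not follow the order of Mal and Mbp. Pmp22 had 159 to 263 CPM there, beside 116 to 196 CPM in the Enpp6-rich and 96.5 to 132 CPM in the Ptgds-led cluster. In the same order Mog had 1303 to 1409, 1075 to 1156 and 1177 to 1395 CPM, and Mobp 1204 to 1848, 1021 to 1590 and 1067 to 1682 CPM.

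The clusters were drawn without these genes but with correlated ones, and their depths differed, with median UMIs of 2558 to 3034 in the Enpp6-rich, 1766 to 2127 in the Anln-led and 1407 to 1588 in the Ptgds-led cluster; the part of depth in the differences was not tested. Ptgds itself was at 93.5 to 240 CPM in the Enpp6-rich and at 9447 to 10329 CPM in the Ptgds-led cluster. Opalin, a gene of oligodendrocyte membranes, was at 13.4 to 21.9 CPM in the Enpp6-rich and at 377 to 737 CPM in the Ptgds-led cluster. The protease gene Klk6 had the opposite order, with 401 to 746 CPM in the Enpp6-rich and 17.7 to 56.8 CPM in the Ptgds-led cluster.

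**Figure D3:**
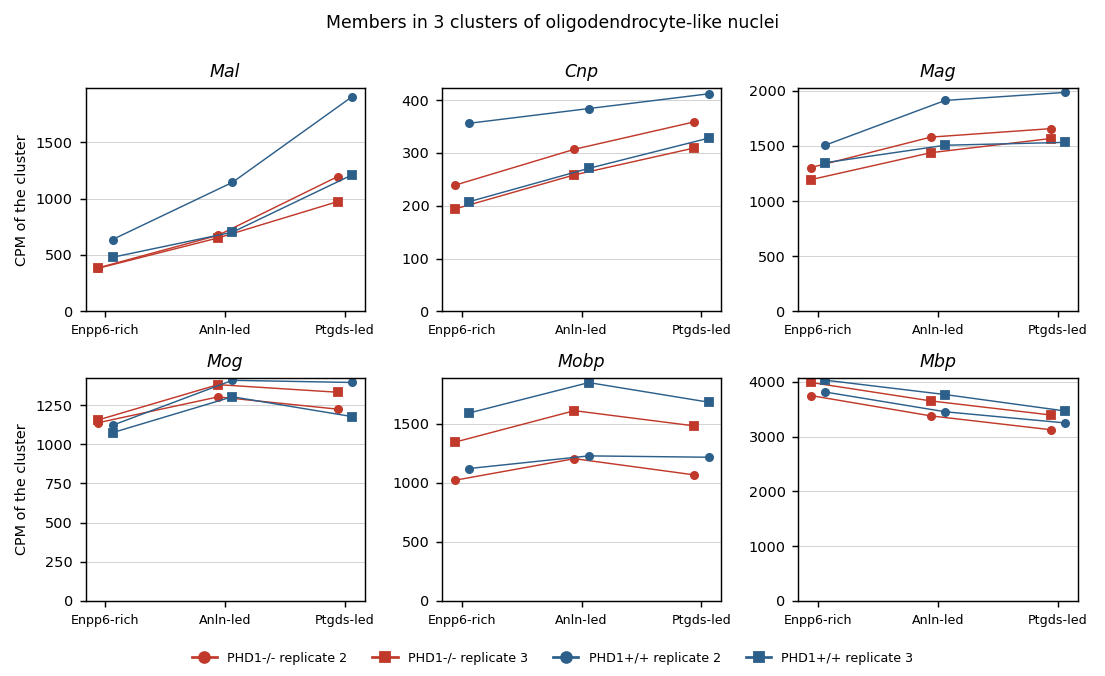
CPM of 6 genes (vertical axis, from 0) in 3 clusters of oligodendrocyte-like nuclei, with each line joining the values of 1 library of replicate 2 or 3, PHD1-/- in red and PHD1+/+ in blue. On all 4 lines Mal is lower at the Enpp6-rich end (382 to 637 CPM) than at the Ptgds-led end (974 to 1905 CPM), and Mbp is higher there (3749 to 4030 CPM against 3126 to 3468 CPM).

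The genotype comparison asked whether loss of PHD1 went with other levels of myelin transcripts in SOD1G93A cord. No member was called in any class tested, and neither was any other gene. In oligodendrocyte-like nuclei 0% of 12620 genes had a Benjamini-Hochberg adjusted p under 0.05, both by edgeR's quasi-likelihood test and by DESeq2. At an unadjusted p under 0.05 edgeR gave 101 genes (0.8%) and DESeq2 53 (0.42%), and no conclusion of equal levels follows from a p that misses the threshold. The intervals below give the changes that the 3 libraries of each genotype still allow in a fit without replicate as a block. Spread that same-numbered libraries share is part of their width.

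Within oligodendrocyte-like nuclei 7 of the 8 genes passed the filter on low counts, Prx being left out. Their estimates were negative for 6 and positive for 1, with a median log2 fold change of -0.13 beside -0.02 for all genes tested. Mbp averaged 3754 ± 449 CPM in PHD1-/- and 3832 ± 445 CPM in PHD1+/+ (SD over 3 libraries each), a log2 fold change of -0.02 (95% interval -0.58 to 0.53). Mag averaged 1593 ± 218 CPM in PHD1-/- and 1671 ± 185 CPM in PHD1+/+, at -0.06 (-0.58 to 0.46). The groups overlapped for both genes.

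Mog averaged 1444 ± 326 CPM in PHD1-/- and 1285 ± 99.7 CPM in PHD1+/+ oligodendrocyte-like nuclei, a log2 fold change of 0.18 (-0.39 to 0.74). PHD1-/- replicate 1, at 1818 CPM, was the highest of the 6 libraries, and the other 5 lay between 1174 and 1366 CPM. Mobp averaged 1125 ± 332 CPM in PHD1-/- and 1239 ± 431 CPM in PHD1+/+, at -0.13 (-0.91 to 0.64), and Cnp 298 ± 34.6 and 346 ± 61.5 CPM, at -0.21 (-0.72 to 0.30). Within each replicate number Mbp, Mobp, Cnp and Pmp22 were lower in the PHD1-/- library, while the groups as wholes overlapped.

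Mal had the widest interval of the 7. It averaged 666 ± 183 CPM in PHD1-/- and 878 ± 468 CPM in PHD1+/+ oligodendrocyte-like nuclei, a log2 fold change of -0.39 (-1.35 to 0.57). PHD1+/+ replicate 2, at 1360 CPM, was the highest library and PHD1+/+ replicate 1, at 425 CPM, the lowest, so the PHD1+/+ values enclosed all PHD1-/- ones. Pmp22 averaged 138 ± 20.4 CPM in PHD1-/- and 174 ± 36.8 CPM in PHD1+/+, at -0.33 (-0.89 to 0.22), with overlapping groups.

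In Schwann-like nuclei all 8 genes were tested among 4351, of which 0% were called by edgeR (27 at an unadjusted p under 0.05) and 0 by DESeq2 (5 unadjusted). The estimates were positive for 4 and negative for 4, with a median of 0.02 beside -0.05 for all genes. Prx averaged 1574 ± 247 CPM in PHD1-/- and 1250 ± 241 CPM in PHD1+/+ (SD over 3 libraries each), a log2 fold change of 0.30 (-0.31 to 0.91). Within each replicate number its PHD1-/- library was the higher, yet PHD1-/- replicate 1, at 1289 CPM, lay below PHD1+/+ replicate 2, at 1527 CPM.

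Pmp22 averaged 4119 ± 1359 CPM in PHD1-/- and 3856 ± 1307 CPM in PHD1+/+ Schwann-like nuclei, at 0.08 (-0.63 to 0.80), and Mbp 3245 ± 401 and 2987 ± 544 CPM, at 0.09 (-0.66 to 0.83). Mal was at 0.25 (-0.55 to 1.05). The central genes were the least certain here: Mog had an interval of -1.71 to 1.64 around -0.04, from 90 UMIs in PHD1-/- and 93 in PHD1+/+ over all libraries. PHD1+/+ replicate 3 had 35 Schwann-like nuclei, so its values rest on few UMIs, such as 53 for Prx.

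OPC-like nuclei had 7 of the genes among 7662 tested, of which 0% were called by edgeR (92 at an unadjusted p under 0.05) and 0 by DESeq2 (22 unadjusted). All 7 estimates were negative, from -0.88 for Mobp to -0.09 for Pmp22, with a median of -0.48 beside -0.01. Leaving out 1 of the replicate 1 libraries moved these estimates far. Without PHD1+/+ replicate 1 all 7 were positive, from 0.22 for Cnp to 1.56 for Mog. Without PHD1-/- replicate 1 Mbp was at -2.15 and Mobp at -2.30. Each such fit keeps replicate 1 of the other genotype. Other alternatives, replicates 2 and 3 alone among them, kept Mbp (-0.59 to -0.49), Mobp (-1.03 to -0.76), Cnp (-0.39 to -0.22) and Pmp22 (-0.13 to -0.06) negative. Mag, Mog and Mal reached 0.35, 0.52 and 0.28 in them. In neuron-like nuclei Mbp, Mobp and Mog summed to 158 ± 147 CPM in PHD1-/- and 214 ± 230 CPM in PHD1+/+ (SD over 3 libraries each; exact permutation test, two-sided p = 0.6). That difference was -56.9 CPM, 76.0 CPM without PHD1+/+ replicate 1, and -8.95 CPM over replicates 2 and 3 alone. The part of stray RNA in the precursor values was not tested.

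**Figure D4:**
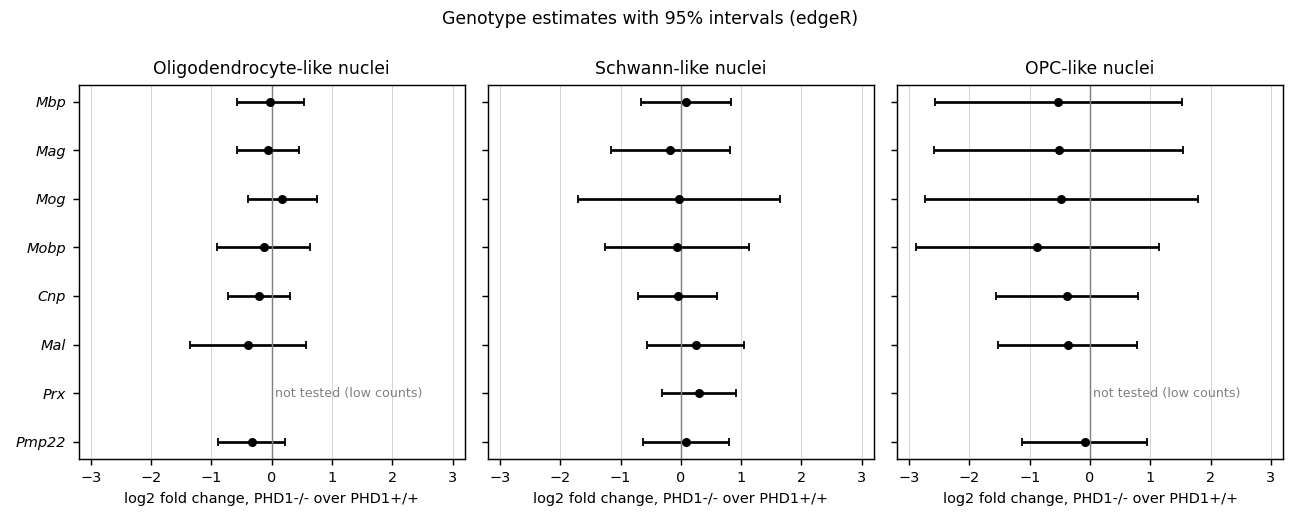
Log2 fold change of PHD1-/- over PHD1+/+ (horizontal axis) for the 8 genes in oligodendrocyte-like, Schwann-like and OPC-like nuclei (Prx was tested in Schwann-like nuclei alone), with points for edgeR's estimate and bars for its 95% interval. Every interval drawn crosses 0, and for each gene tested in all 3 classes that of OPC-like nuclei is the widest.

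Summed over all nuclei, where a smaller number of glial nuclei and less RNA per nucleus cannot be told apart, 2 of the 8 estimates were positive and 6 negative, with a median of -0.21 beside -0.01 for all 19303 genes. Of these genes 0% were called by edgeR (96 at an unadjusted p under 0.05) and 0 by DESeq2 (93 unadjusted). Oligodendrocyte-like nuclei made up 32.8 ± 7.55% of kept nuclei in PHD1-/- and 31.1 ± 4.43% in PHD1+/+ (SD over 3 libraries each), and an exact permutation test gave a two-sided p of 0.8. Schwann-like nuclei made up 2.54 ± 1.48% in PHD1-/- and 1.93 ± 1.22% in PHD1+/+ (exact permutation test, p = 0.6), and with 3 libraries against 3 this test cannot give a p below 0.1.

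The genotype effect was also compared between the glial types, as its log2 value in oligodendrocyte-like minus that in Schwann-like nuclei. Of 12617 genes 0% were called by edgeR (315 at an unadjusted p under 0.05) and 0 by DESeq2 (102 unadjusted). Among the members Mal was at -0.54 (-1.36 to 0.27), Pmp22 at -0.46 and Mog at 0.17. Prx was at -1.35 (-2.96 to 0.26; adjusted p = 1, edgeR's quasi-likelihood test), and at -2.82 (adjusted p = 0.0424) without PHD1-/- replicate 1, against 0.30 without PHD1+/+ replicate 1. That value rests on the 1 to 62 Prx UMIs of oligodendrocyte-like nuclei, 20, 5 and 5 in PHD1-/- and 62, 15 and 1 in PHD1+/+.

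The wider lists showed 0 called genes between the genotypes too. In oligodendrocyte-like nuclei the 20 central genes had 9 positive and 11 negative estimates with a median of -0.02, equal to that of all genes at this precision. In Schwann-like nuclei 14 of the 16 peripheral genes were tested, 10 positive and 4 negative, with a median of 0.16 beside -0.05. The 13 tested transcription factor genes had a median of 0.06 and the 10 lipid genes a median of -0.06 in oligodendrocyte-like nuclei.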

How the data were processed

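Each of the 6 libraries had a deposited matrix of raw counts, one UMI count per gene and barcode. The authors counted reads on mm10 with Cell Ranger 5.0.2 and used Scanpy 1.8.1, per the submitters' processing notes; the file headers name Cell Ranger 5.0.1. No source used here says whether intronic reads were counted or with which strand setting. The counts carry no normalization.

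Nuclei were kept above floors of 500 UMIs and 300 genes, with at most 5% mitochondrial UMIs. Marked doublets, 0 to 259 in a library, were removed; in replicate 1 the caller marked 1 nucleus in PHD1-/- and 0 in PHD1+/+, under 0.5%, so it did not work there. Nuclei were clustered with Scanpy 1.11.5 and leidenalg 0.10.2 (2000 variable genes without the 8 members, 30 components, 15 neighbours, resolution 1) and named from marker lists. A name needed at least 3 markers at 20 CPM or more, a marker score of at least 1 and a lead of at least 0.5 on the log2 scale over the next class (2 at a tie); these naming thresholds were set after the clusters were seen. The members and lists were chosen with earlier results of these data known.

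For each class the UMIs of a library were added up, and edgeR 4.0.16 tested these sums (quasi-likelihood, TMM, filterByExpr, Benjamini-Hochberg over all genes tested), with DESeq2 1.42.0 as the alternative; the script was tested on simulated counts. The class contrast kept the library as a block. Named genes are the members, the 3 highest and the called genes of each list and genes from the 5 most like Mog, Prx and Pmp22; some of these are not reported here; Sirt2 and the genes that describe clusters were named after their values were seen. Exact permutation tests were used for single values. Intervals on counts cover counting error only. Depth was 14120298 to 33794389 UMIs a library.

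The labels tell of littermate pairs but not which libraries pair. Same-numbered libraries deviated together in each class tested (correlations of 0.871, 0.692 and 0.627 for replicates 1, 2 and 3 over all nuclei), so replicate numbers were taken as pairs in an alternative fit. Deviations were taken from the mean of each genotype, so the distance of replicate 1 in both also raises the correlations of replicates 2 and 3. The correlations therefore cannot show that the numbers mark pairs. PHD1-/- replicate 2 with PHD1+/+ replicate 3 and PHD1-/- replicate 3 with PHD1+/+ replicate 2 also correlated, at 0.574 and 0.515, and in Schwann-like nuclei PHD1-/- replicate 3 did so more with PHD1+/+ replicate 2 (0.267) than with replicate 3 (0.149). Where libraries are not separate mice, p-values measure only the spread between these samples.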

Additional observations from a re-analysis of the deposited data

Results flagged for a closer look

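The log2 ratio of Mbp in oligodendrocyte-like over Schwann-like nuclei was 0.54 in PHD1+/+ replicate 3, the highest of the 6 libraries, and the next was 0.30. Its gap to the next library was 0.670 of the whole range, above the limit for 6 values. That library had 35 Schwann-like nuclei, the fewest of all. The ratio was checked in this way for each of the 8 genes, and chance flags about 1 in 20 groups.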

How the results depend on the processing

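The calls between glial types held for Mog, Mobp, Mag, Prx and Pmp22 under every alternative run. Library totals, cluster resolutions of 0.6 and 1.5, and replicates 2 and 3 alone are among these; the last and the library totals were added after the data were seen. The fit without mixed nuclei favours a wider contrast of central genes and is no check of their calls. Mbp and Mal lost their calls with library totals (0.29 and 0.28 on the log2 scale) and Cnp was called there (-0.38). Mal kept its call with each library left out, at adjusted p up to 0.0491 by edgeR. The number of genes called between the glial types was 4395, with 2636 higher and 1759 lower in oligodendrocyte-like nuclei; DESeq2 gave 3642, with 1816 higher and 1826 lower, library totals gave 4404, with 1630 higher and 2774 lower, and leaving out 1 library gave 3585 to 4462. Genotype counts of 0 became 3 genes in Schwann-like nuclei and 4 in OPC-like nuclei with no filter on low counts, and 2 in OPC-like nuclei with the replicate block. The block changed no other call. The difference between glial types called 1 gene without mixed nuclei and 0 to 9 with 1 library left out, the 9 without PHD1-/- replicate 1, Prx among them. The difference in oligodendrocyte-like share was 1.74 points, and -2.62 to 4.22 with 1 library left out, reversed at -0.0678 and -2.62. The stray Mbp, Mobp and Mog in neuron-like nuclei differed by -56.9 CPM between genotypes, and by -142 to 76.0 CPM with 1 library left out. Over replicates 2 and 3 alone that difference was -8.95 CPM. Of 613 values of members under alternatives 78 had another sign than the reported value, all of members not called there. The causes were not tested. Prx in oligodendrocyte-like nuclei rests on few counts, 1 to 62 UMIs in a library, and the smallest Schwann-like sum rests on 35 nuclei.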

Other observations

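Outside the myelinating glia, Mal was found in endothelial-like nuclei at 214, 343 and 364 CPM in PHD1-/- and at 210, 219 and 435 CPM in PHD1+/+. In the cluster led by Scn7a, Pmp22 was at 734, 857 and 697 CPM in PHD1-/- and at 409, 755 and 311 CPM in PHD1+/+. The 13 Schwann markers, Scn7a among them, summed to 5162 to 9831 CPM in that cluster. The 13 oligodendrocyte markers summed to 3418 to 7479 CPM there. In replicate 1 the oligodendrocyte markers were the higher, at 7479 against 5162 CPM in PHD1-/- and 5359 against 5228 CPM in PHD1+/+. The cluster was given no cell type name.

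Of the Prx UMIs in replicate 1, 297 of 652 in PHD1-/- and 512 of 1075 in PHD1+/+ were in nuclei of unnamed clusters. A single unnamed cluster of 837 nuclei, with a median of 4437 UMIs, came mostly from replicate 1, with 375 nuclei in PHD1-/- and 427 in PHD1+/+. Gm15541, which overlaps Prx on the other strand, was among its leading genes.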
